A study of Mus musculus with 12 samples.

Results

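The Hox genes of the 4 mouse clusters, HoxA, HoxB, HoxC and HoxD, were followed in male germ cells of newborn mice that were heterozygous for Morc1 or lacked it. Members were all protein-coding genes whose GENCODE M21 symbol is Hoxa, Hoxb, Hoxc or Hoxd followed by a number. All 39 such genes of the annotation were listed in the gene table, among 35666 genes in all, of which 19212 were protein-coding. The rule used names only and no measured value.

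The series examined gonocytes, the germ cells of the newborn testis, from mice that lack Morc1, a gene of the MORC family of ATPases known for repressing transposable elements in the male germ line. The groups compared here were 3 libraries from Morc1 (+/-) mice, written het, and 3 libraries from Morc1 (-/-) mice, written KO, all at P0, the day of birth. Both genotypes carried the Mvh-Venus transgene, a fluorescent reporter named after Mvh, the germ cell gene also called Ddx4, and the cells were isolated from testis. No wild-type group was used here. The labels do not say how the Morc1 allele was made, nor whether the libraries of a genotype came from separate animals or from pools, so p-values measure only the spread between these libraries. Libraries of P3 gonocytes also belong to the series and were not analysed here.

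Hox genes encode homeodomain transcription factors that give cells of the embryo their position along the head to tail axis. Within a cluster, genes at the 3′ end (low paralog numbers) are known to act early and towards the head, and genes at the 5′ end (high numbers) later and towards the tail; retinoic acid and Cdx factors switch them on, and Polycomb complexes keep them off elsewhere. In germ cells, Hox promoters are known as CpG-rich sites that Polycomb marks with H3K27 methylation while transcription is low.

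Promoter windows of a few members were taken from RefSeq for GRCm38.p6, because CpG content is the property Hox promoters are known for and the members were low whether their windows were rich or poor in it. Each window runs from 250 bases before to 50 bases after an annotated start, written 5′ to 3′ on the gene's strand, with CG dinucleotides in capitals. The table held 24 windows for 22 of the 39 members. Hoxa2 (chr6:52164782-52165081, minus strand) and Hoxd11 (chr2:74679308-74679607 and chr2:74682073-74682372, plus strand) are shown because all 3 KO libraries were above all 3 het libraries in both genes. Hoxd1 (chr2:74762730-74763029, plus strand) was among the highest members per length, and Hoxd12 (chr2:74674763-74675062, plus strand) among the lowest.
Hoxa2: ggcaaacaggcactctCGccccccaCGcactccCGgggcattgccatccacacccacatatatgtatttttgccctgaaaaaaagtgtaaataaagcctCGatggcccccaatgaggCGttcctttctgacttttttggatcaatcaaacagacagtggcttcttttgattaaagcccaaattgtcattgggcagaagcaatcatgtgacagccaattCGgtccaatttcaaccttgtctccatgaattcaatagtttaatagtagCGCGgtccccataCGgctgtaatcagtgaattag
Hoxd11, first start: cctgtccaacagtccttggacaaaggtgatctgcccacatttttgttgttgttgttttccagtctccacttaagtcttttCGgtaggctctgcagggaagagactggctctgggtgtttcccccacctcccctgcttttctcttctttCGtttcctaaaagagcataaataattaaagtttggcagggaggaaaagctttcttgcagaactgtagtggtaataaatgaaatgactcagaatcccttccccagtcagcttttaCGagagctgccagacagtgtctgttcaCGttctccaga
Hoxd11, second start: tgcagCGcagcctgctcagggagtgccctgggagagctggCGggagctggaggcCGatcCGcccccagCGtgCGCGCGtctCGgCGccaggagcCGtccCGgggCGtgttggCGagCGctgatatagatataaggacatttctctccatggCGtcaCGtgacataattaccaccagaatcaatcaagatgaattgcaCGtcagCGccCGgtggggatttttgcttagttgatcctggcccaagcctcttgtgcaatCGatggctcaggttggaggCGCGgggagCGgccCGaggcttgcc
Hoxd1: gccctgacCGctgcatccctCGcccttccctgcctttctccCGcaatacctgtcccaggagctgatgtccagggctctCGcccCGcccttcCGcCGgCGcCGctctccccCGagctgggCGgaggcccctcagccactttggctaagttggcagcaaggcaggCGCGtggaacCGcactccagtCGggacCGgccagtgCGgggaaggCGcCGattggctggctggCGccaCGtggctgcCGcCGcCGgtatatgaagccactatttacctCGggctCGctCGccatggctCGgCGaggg
Hoxd12: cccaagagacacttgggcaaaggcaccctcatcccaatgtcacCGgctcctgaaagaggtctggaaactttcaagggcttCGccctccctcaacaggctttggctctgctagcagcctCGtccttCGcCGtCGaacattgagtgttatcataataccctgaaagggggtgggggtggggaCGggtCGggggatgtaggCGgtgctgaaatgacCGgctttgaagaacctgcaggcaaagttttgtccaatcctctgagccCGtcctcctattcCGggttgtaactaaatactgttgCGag
The Hoxd1 window held 29 CG dinucleotides and the Hoxd12 window 13. The Hoxa2 window held 9, and the windows of Hoxd11 held 4 and 25.

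Over the 24 Hox windows the median was 14.5 CG dinucleotides (range 4 to 45, highest at Hoxa13), against 7 over all 32851 windows of 27025 genes. The median GC content was 57.7% in Hox windows and 52.7% in all windows. Motifs were searched on both strands. The letters TATAAA were found in 16.7% of Hox windows and 13.6% of all windows. TGATNNAT, the letters of the site that Hox and Pbx proteins bind together, was found in 16.7% of Hox windows and 8.85% of all windows. It was present at Hoxa2, Hoxb1, Hoxb8 and the second start of Hoxd11. These are letter matches in short windows, and the members without an entry were not searched.

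Levels are normalized counts from the authors' deposited table. Reads assigned to genes, recovered from these values, numbered 28363683 to 32816861 per library, of which 2247 to 3761 fell on the 39 Hox genes. For Morc1, het replicates 1 to 3 gave 7248, 7485 and 4126 normalized counts and KO replicates 1 to 3 gave 1360, 1343 and 1794, so the KO level was 23.8% of the het level. It fell by 2.03 on the log2 scale (SE 0.27, limma adjusted p = 0.0109, n = 3 per genotype; exact permutation p = 0.1, the smallest this design allows). Leaving out het replicate 1 gave a limma adjusted p of 0.0511, leaving out KO replicate 1 gave 0.101 and leaving out KO replicate 3 gave 0.0663, all short of the threshold, while the fall was between 1.88 and 2.31 on the log2 scale in every such fit. Transcript from the allele was still counted in every KO library, and the part of the gene removed is not given in the sources used here. Libraries differed within a genotype in a chi-square comparison of their recovered reads: het replicates 1 and 2 were the closest pair, KO replicate 1 was closer to those 2 than to the other KO libraries, and KO replicate 3 was the farthest from the rest (mean chi-square per gene 74.5 to 120, against 10.99 for the closest pair). Het replicate 3 stood apart by Leydig cell markers (summed level 26326 against 814 to 1590 in the other 5 libraries).

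The germ cell label was checked against Ddx4 and Dazl. Both were abundant in every library, with Ddx4 between 17605 and 31038 and Dazl between 48158 and 72571 normalized counts. Not all of the 10 germ cell markers used below were abundant. Nanos2 was between 16.4 and 47.5 (19.1th percentile per kb of protein-coding genes) and Nanos3 between 56.6 and 488 (58.7th percentile). Markers of somatic testis cells were also counted in every library: none of 48 was at or under 3 reads in all libraries. In bulk libraries, fewer cells of a type and less RNA per cell cannot be told apart.

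Hox transcripts were present but scarce in both genotypes. Per kilobase of exon, the median Hox gene was at 20.9 normalized counts per kb, against 106 for the 19212 protein-coding genes listed, and the median member stood at the 21.5th percentile of protein-coding genes. Only Hoxb7 (138 per kb, 55.8th percentile) and Hoxc9 (114 per kb, 51.6th percentile) lay above the protein-coding median. Hoxd1 (94.2 per kb), a gene of the nervous system in the mouse, came next. Hoxb8, Hoxd12 and Hoxd4 were the lowest, at 0.812, 1.40 and 1.55 per kb.

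Position in the cluster went with little difference in level. The median per kb was 18.1 for the anterior group (paralogs 1 to 3), 20.4 for the central group (4 to 8) and 22.8 for the posterior group (9 to 13). By cluster the medians were 16.3 (HoxA), 27.9 (HoxB), 11.4 (HoxC) and 22.2 (HoxD). Within each cluster high and low members stood side by side: Hoxb7 was the highest member of all and its neighbour Hoxb8 the lowest. No test was made of these differences, since neighbouring genes of 1 library are not replicates.

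**Figure D1:**
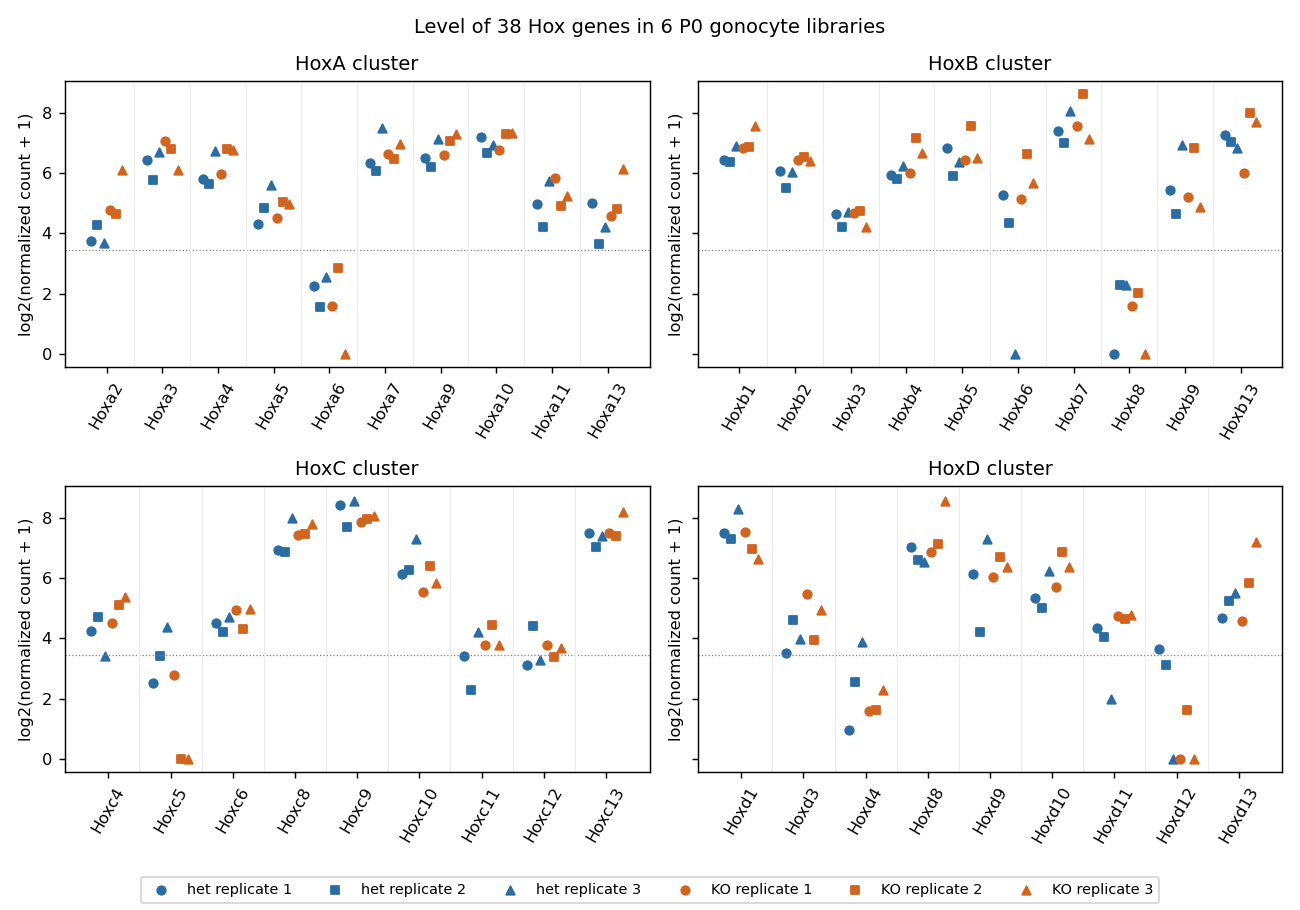
Level of 38 Hox genes in the 6 libraries, as log2(normalized count + 1), in 1 panel per cluster with genes ordered by paralog number. Each point is 1 library (blue het, orange KO; circle, square and triangle are replicates 1, 2 and 3), and the dotted line marks a normalized count of 10; het and KO points overlap for most genes, and Hoxa6, Hoxb8, Hoxc5, Hoxd4 and Hoxd12 averaged under that line.

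Most genes near the clusters were not low. The 3 nearest protein-coding genes on each side of each cluster make 24 genes, of which 23 were listed (Atp5g1 was not). Of these, 17 lay above the protein-coding median per kb, with a median of 275 per kb and a median percentile of 70.7. Evx1 (5.64th percentile) and Evx2 (4.83rd percentile), homeobox genes that adjoin the 5′ ends of HoxA and HoxD, were as low as Hox genes. Also under the median were Ttll6 (39.9th percentile) and Smug1 (27.6th), each the nearest gene on its side, and Calcoco2 (26.8th) and Hnrnpa3 (30.6th). The plot of percentiles along the 4 loci shows the low stretch with flanks that were mostly, but not always, high.

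**Figure D2:**
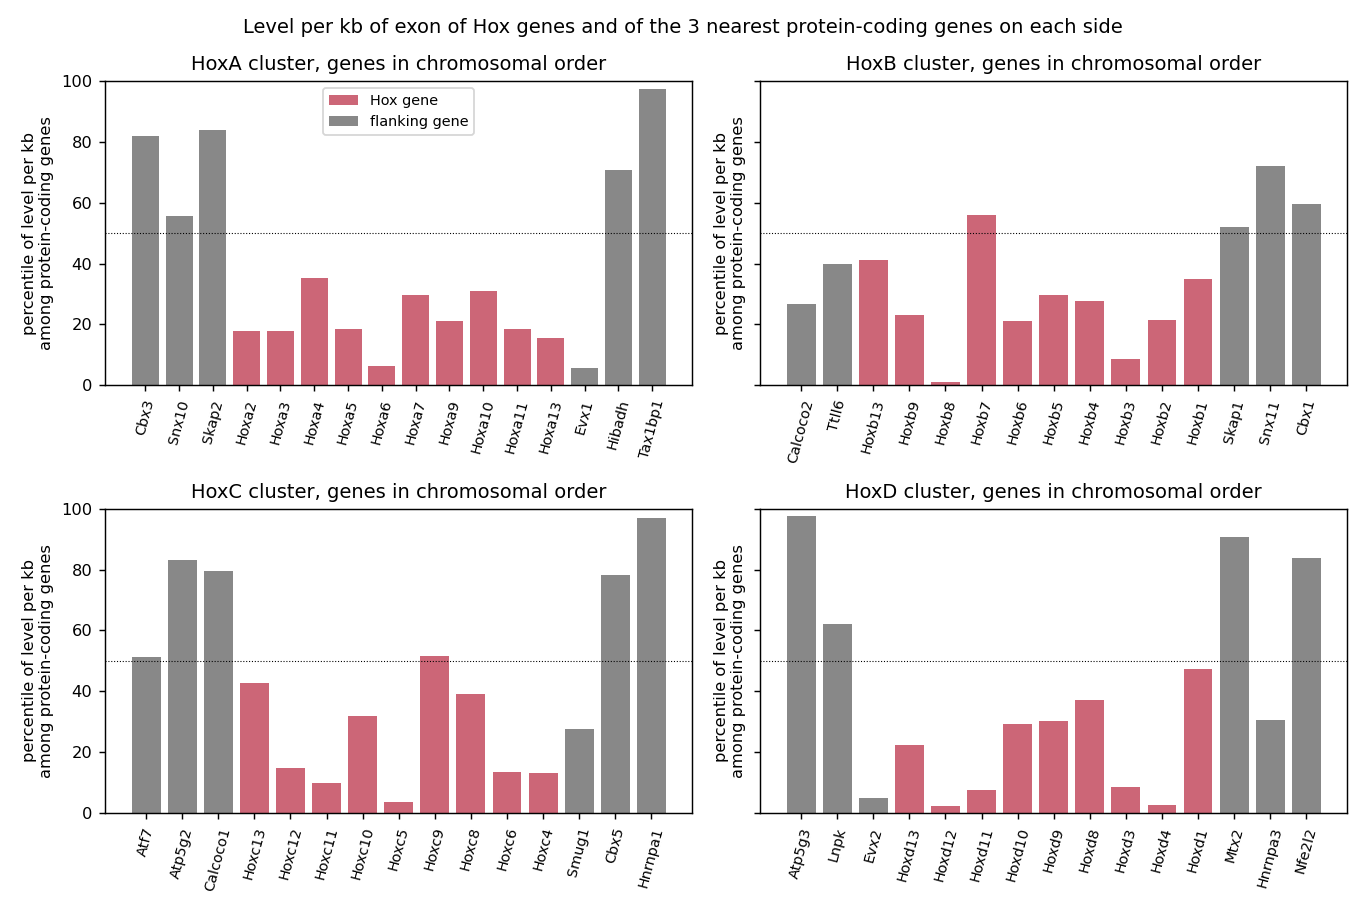
Percentile of each gene's level per kb of exon among 19212 protein-coding genes (vertical axis) for 38 Hox genes and the 3 nearest protein-coding genes on each side, in order of their annotated starts along each cluster (horizontal axis); the dotted line marks 50. The Hox genes lie between 1.08 and 55.8, and 17 of the 23 listed flanking genes lie above 50.

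Hox genes with the highest counts came from all 4 clusters, and the top 8 held 49.5% of the summed Hox level. Hoxc9, a thoracic patterning gene, was at 340, 204 and 377 normalized counts in het replicates 1 to 3, the order used throughout, and at 231, 247 and 263 in KO. Hoxb7 was at 166, 126 and 268 in het against 188, 394 and 138 in KO. In both genes the genotypes overlapped, and the highest library of Hoxb7 was KO replicate 2.

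Hoxc13, known for its role in hair and nails, was at 179, 129 and 166 normalized counts in het against 181, 167 and 293 in KO. Hoxc8 was at 122, 116 and 255 in het against 169, 176 and 220 in KO. Neither gene separated the genotypes: the highest library was KO replicate 3 for Hoxc13 and het replicate 3 for Hoxc8.

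Hoxd1 was at 179, 157 and 312 normalized counts in het against 182, 125 and 97.0 in KO. Hoxd8 was at 130, 95.6 and 90.7 in het against 115, 137 and 372 in KO. Hoxb13, known in the prostate and the tail, was at 152, 128 and 114 in het against 63.3, 252 and 206 in KO. Single libraries stood out in each: het replicate 3 in Hoxd1, KO replicate 3 in Hoxd8, and KO replicate 1, the lowest, in Hoxb13. Among the genes given here the log2 fold changes ran from -0.66 for Hoxd1 to 0.79 for Hoxd8, which was 0.27 without KO replicate 3.

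The 5 members with a mean under 10 normalized counts were not tested. Hoxa6 ranged from 0 to 6.20 over the 6 libraries, Hoxb8 from 0 to 3.90, and Hoxd4 from 0.954 to 13.7. Hoxc5 was at 4.77, 9.66 and 19.5 in het against 5.94, 0 and 0 in KO. Hoxd12 was at 11.4, 7.73 and 0 in het against 0, 2.07 and 0 in KO. For Hoxc5 and Hoxd12 the highest libraries were het libraries, but at these counts the genotypes overlapped and a library at 0 is a matter of a few reads. With no filter on low values, Hoxc5 had a log2 fold change of -2.50 (limma adjusted p = 0.642).

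Exons of 16 members share bases with another annotated gene, and how reads in shared exons were assigned is not given in the sources used here. The share was above 50% for Hoxd3 (62.8%), Hoxb3 (52.9%, with the antisense gene Hoxb3os) and Hoxd4 (52.3%), whose levels are therefore uncertain. Whether counting used the strand is not given, so reads of a Hox gene and its antisense partner cannot be told apart.

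Loss of Morc1 was compared with the heterozygous state for the 34 members with a mean of at least 10. No Hox gene passed the threshold in either direction: at the threshold of 0.05 for the adjusted p, limma called 0 of 34 higher and 0 of 34 lower in KO, and 0 had an unadjusted p under 0.05. Over all 26005 genes tested, limma called 0.431% higher and 0.0423% lower, and 4.42% were higher and 2.44% lower at an unadjusted p under 0.05. The adjusted p-values of the Hox genes ran from 0.737 to 0.999 (limma, Benjamini-Hochberg). On recovered reads, edgeR and DESeq2 also called 0 of 34, where over all genes edgeR called 0.465% higher and 0.0308% lower and DESeq2 1.54% and 0.25%. At an unadjusted p under 0.05 edgeR had 1 member (Hoxa2) and DESeq2 had 2 (Hoxa2 and Hoxd8). The share of all genes under that unadjusted threshold was not counted for edgeR or DESeq2, so these member counts have no background beside them.

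Estimates of the log2 fold change were above 0 for 29 of 34 members and below 0 for 5 (Hoxd1, Hoxc10, Hoxc9, Hoxa5 and Hoxb9). The median was 0.39, against -0.02 over all genes tested, of which 48.4% were above 0. The members were measured in the same 6 libraries, so their signs are not independent observations. With all library sizes set by total reads, and in edgeR and DESeq2, 27 of 34 were above 0, and leaving out 1 library at a time gave 25 to 30.

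The precision of these estimates was limited. Standard errors ran from 0.31 to 1.181 with a median of 0.47, against 0.37 over all genes tested. All 34 confidence intervals (95%) included 0. For 26 members the interval lay within a 4-fold change in either direction, and for 8 members it reached beyond, so a change of that size stayed inside the interval for those 8.

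**Figure D3:**
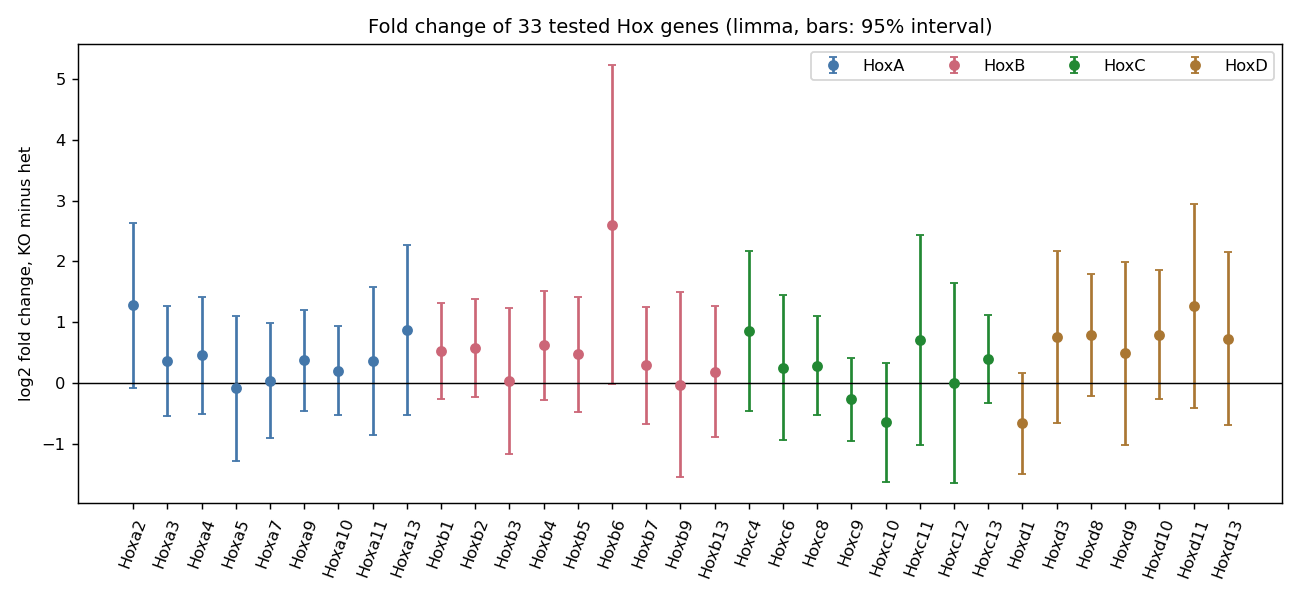
Log2 fold change of KO over het for 33 tested Hox genes, on the log2(normalized count + 1) scale, with 95% confidence intervals from limma (n = 3 libraries per genotype). Points above 0 are higher in KO; 28 of 33 lie there, and every interval includes 0.

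In 3 of 34 members all KO libraries were above all het libraries, and in 0 all were below; over all genes tested these shares were 7.17% and 5.57%, so the Hox count was close to the background. Hoxa2, which patterns the hindbrain and the second pharyngeal arch, was at 12.4, 18.4 and 11.7 normalized counts in het against 26.7, 23.8 and 67.6 in KO. The highest library, KO replicate 3, stood above the rest. Its log2 fold change was 1.28 (SE 0.61, 95% interval -0.07 to 2.63, limma adjusted p = 0.772), and without KO replicate 3 it was 0.82 (limma adjusted p = 0.980).

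Hoxd11, which acts in the forearm and the kidney, was at 19.1, 15.5 and 2.93 normalized counts in het against 25.7, 23.8 and 26.5 in KO. The 3 KO values were nearly equal, and het replicate 3 was low. Its log2 fold change was 1.27 (SE 0.76, 95% interval -0.41 to 2.95, limma adjusted p = 0.839), and 0.53 without het replicate 3 (limma adjusted p = 0.871). Hoxb2, a hindbrain gene, was at 66.7, 44.4 and 65.3 in het against 86.1, 90.9 and 83.3 in KO. Values within each genotype were close, and the log2 fold change was 0.57 (SE 0.37, 95% interval -0.24 to 1.39, limma adjusted p = 0.854).

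The largest estimate belonged to Hoxb6, a gene chosen here after its values were seen. It was at 38.1, 19.3 and 0 normalized counts in het against 34.6, 98.2 and 49.97 in KO. The genotypes overlapped, and the log2 fold change of 2.61 (SE 1.181, 95% interval -0.02 to 5.23, limma adjusted p = 0.737) rested on the library at 0: without het replicate 3 it was 1.00 (limma adjusted p = 0.791). Hoxd1 had the most negative estimate, -0.66 (SE 0.37, 95% interval -1.49 to 0.17, limma adjusted p = 0.824), followed by Hoxc10 with -0.65 (SE 0.44, 95% interval -1.62 to 0.33, limma adjusted p = 0.867). Without het replicate 3 they were -0.36 and -0.28, and in edgeR and DESeq2 Hoxc10 (-0.71 in both) was slightly below Hoxd1 (-0.69 and -0.68).

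Read by role, the anterior members (paralogs 1 to 3, hindbrain and neck) had 8 of 8 tested, 0 called and a median log2 fold change of 0.45, with Hoxd1 the only estimate below 0. The central members (paralogs 4 to 8, neck and trunk) had 11 of 15 tested, 0 called and a median of 0.46, with Hoxa5 (-0.09) the only estimate below 0. The posterior members (paralogs 9 to 13, lower trunk, limbs and urogenital tract) had 15 of 16 tested, 0 called and a median of 0.37. Among the posterior genes known in the urogenital tract, Hoxa10 had a log2 fold change of 0.20, Hoxa11 0.36, Hoxa13 0.87 and Hoxd13 0.73, each with an interval that included 0. Hoxd13 in KO replicate 3, at 147 normalized counts, was above its other 5 libraries, which ran from 22.8 to 55.8. Without KO replicate 3 the log2 fold change was 0.06 for Hoxd13 and 0.39 for Hoxa13, and without KO replicate 1 it was 1.38 and 1.16. Hoxa11 ran from -0.03 without het replicate 2 to 0.75 without het replicate 3, and Hoxa10 from 0.07 without het replicate 2 to 0.39 without KO replicate 1.

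By cluster, HoxA had 10 members tested with a median log2 fold change of 0.36, HoxB 9 with 0.47, HoxC 8 with 0.27 and HoxD 7 with 0.76. The members called numbered 0 in each cluster. HoxC contributed 2 of the 5 estimates below 0, Hoxc9 and Hoxc10, which are neighbours, and the other clusters 1 each.

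Summed over the 39 members, het replicates 1 to 3 held 2773, 2170 and 3534 normalized counts and KO replicates 1 to 3 held 2804, 3659 and 3685. The means were 2826 ± 683 in het and 3383 ± 501 in KO (SD, n = 3 each), a log2 ratio of 0.26, smaller than the spread between libraries. Het replicate 3 lay close to KO replicates 2 and 3, and KO replicate 1 close to het replicate 1. Without het replicate 3, which stood apart by Leydig markers, the log2 ratio was 0.45, and the higher remaining het library (2773) lay just under the lowest KO library (2804). Without KO replicate 1 the ratio was 0.38, and without het replicate 2, the lowest library, it was 0.10. Leaving out het replicate 1, KO replicate 2 or KO replicate 3 gave 0.25, 0.20 and 0.19. In each of these cases limma called 0 of 34 members.

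The summed level of HoxA was 770 ± 149 in het and 936 ± 69.9 in KO, and that of HoxB 725 ± 158 and 1008 ± 375 (SD, n = 3 each). The HoxC sum was 803 ± 218 in het and 797 ± 115 in KO, and the HoxD sum 527 ± 164 and 642 ± 175. In each cluster the genotypes overlapped. The highest HoxB library was KO replicate 2 (1425), and without it the log2 ratio of the HoxB sums went from 0.48 to 0.14. For HoxC the ratio was -0.01 and changed sign with the library left out, from -0.18 without het replicate 2 to 0.21 without het replicate 3.

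By paralog class, the anterior sum was 687 ± 94.3 in het and 771 ± 95.9 in KO, the central sum 897 ± 258 and 1213 ± 278, and the posterior sum 1242 ± 336 and 1399 ± 324 (SD, n = 3 each). All 3 classes overlapped between genotypes. Of the summed level, HoxA held 27.2% in het and 27.7% in KO, HoxB 25.7% and 29.8%, HoxC 28.4% and 23.6%, and HoxD 18.7% and 19.0%. The HoxC share was 27.9%, 27.7% and 29.3% in het against 25.3%, 20.6% and 25.2% in KO, so each KO library was under each het library. The other shares overlapped between genotypes, and the HoxB share was highest in KO replicate 2 (38.9%). These shares were looked at after the sums were seen and were not tested.

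**Figure D4:**
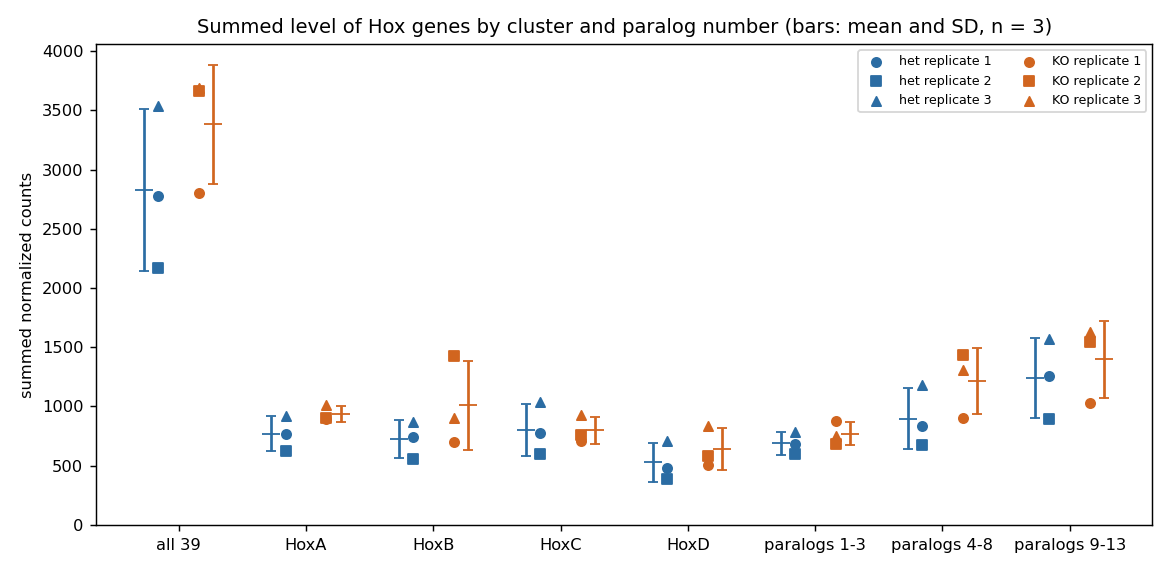
Summed normalized counts of the Hox genes in each library, by cluster and by paralog class; each point is 1 library (blue het, orange KO), each horizontal tick the mean of 3 and each vertical bar its SD. Het and KO points overlap in every set, and the KO mean is above the het mean in all but HoxC.

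Which library was extreme varied by gene, but not evenly. Among the 34 tested members, the highest value fell in KO replicate 3 for 11, in KO replicate 2 for 10, in het replicate 3 for 8, in KO replicate 1 for 4 and in het replicate 2 for 1. The lowest value fell in het replicate 2 for 21. Het replicate 2 thus held the low end for most Hox genes, and it also had the highest summed germ cell level of the het libraries.

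Markers of other testis cell types are given beside these sums because somatic cells of the gonad and the mesonephros are known to transcribe Hox genes. Stroma markers (10 genes) summed to 8208 to 8476 normalized counts in het and 8206 to 8685 in KO, a spread of 1.06-fold while the Hox sum spread 1.698-fold. Single stroma markers varied more than their sum, from 1.30-fold (Dcn) to 5.62-fold (Tcf21): Col1a1 was at 3013 in KO replicate 2 and 1141 in KO replicate 3, and Postn, the other way round, at 626 and 2494. Sertoli markers (9 genes) summed to 20518 to 43968 in het and 14958 to 22561 in KO, and Leydig markers (6 genes) to 1455 to 26326 and 814 to 1590. Both lists had all their estimates below 0 in KO, against 5 of 34 for Hox genes. Within each genotype, Sertoli sums ranked the libraries in the same order as Hox sums. Each order is of only 3 libraries, and the Hox sums of KO replicates 2 and 3 were nearly equal (3659 and 3685). From high to low, the het order was replicates 3, 1 and 2 (Sertoli sums 43968, 28063, 20518). For KO libraries it was replicates 3, 2 and 1 (22561, 17640, 14958). Leydig sums followed the Hox order in neither genotype.

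Peritubular myoid markers (6 genes) summed to 3866 to 4913 in het and 3931 to 5381 in KO. Blood and macrophage markers (7 genes) summed to 871 to 1378 and 844 to 1720, and mesonephric epithelium markers (5 genes) to 1063 to 1285 and 1069 to 1776. These 3 sums overlapped between genotypes. Endothelial markers (5 genes) did not: they summed to 3369 to 4333 in het and 4645 to 4993 in KO, with Tek, a receptor of vessel growth, at 834, 1043 and 587 in het against 2344, 1244 and 2396 in KO (log2 fold change 1.257, SE 0.32, limma adjusted p = 0.201), while the other 4 genes overlapped. Without Tek the endothelial sums overlapped too, at 3499, 2715 and 2782 in het against 2451, 3400 and 2598 in KO.

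Limma called 0 of the 48 somatic markers; at an unadjusted p under 0.05 there were 1 higher (Tek) and 3 lower, all of the Sertoli list and all without overlap. Sox9, a Sertoli cell regulator, was at 2243, 1569 and 2535 in het against 1014, 1524 and 1343 in KO (log2 fold change -0.70, SE 0.26, limma adjusted p = 0.579). Amh, the anti-Müllerian hormone, was at 1158, 724 and 1393 in het against 526, 618 and 253 in KO (log2 fold change -1.27, SE 0.37, limma adjusted p = 0.329). Clu was at 9396, 7425 and 12728 in het against 4902, 4247 and 6324 in KO (log2 fold change -0.92, SE 0.25, limma adjusted p = 0.253). The highest library was het replicate 3 in each. Germ cell markers (10 genes) summed to 130880 to 202939 in het and 135645 to 204657 in KO, with 0 called and 0 at an unadjusted p under 0.05. The 3 libraries with the lowest germ sums, het replicate 3 (130880), KO replicate 2 (135645) and KO replicate 3 (164327), were the 3 with the highest Hox sums. In KO replicate 2 the mesonephric list was also at its highest (1776), with Lhx1, a gene of the nephric duct chosen after its values were seen, at 1017 against 174 to 275 in the other libraries. The part of somatic RNA in the Hox levels was not tested.

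**Figure D5:**
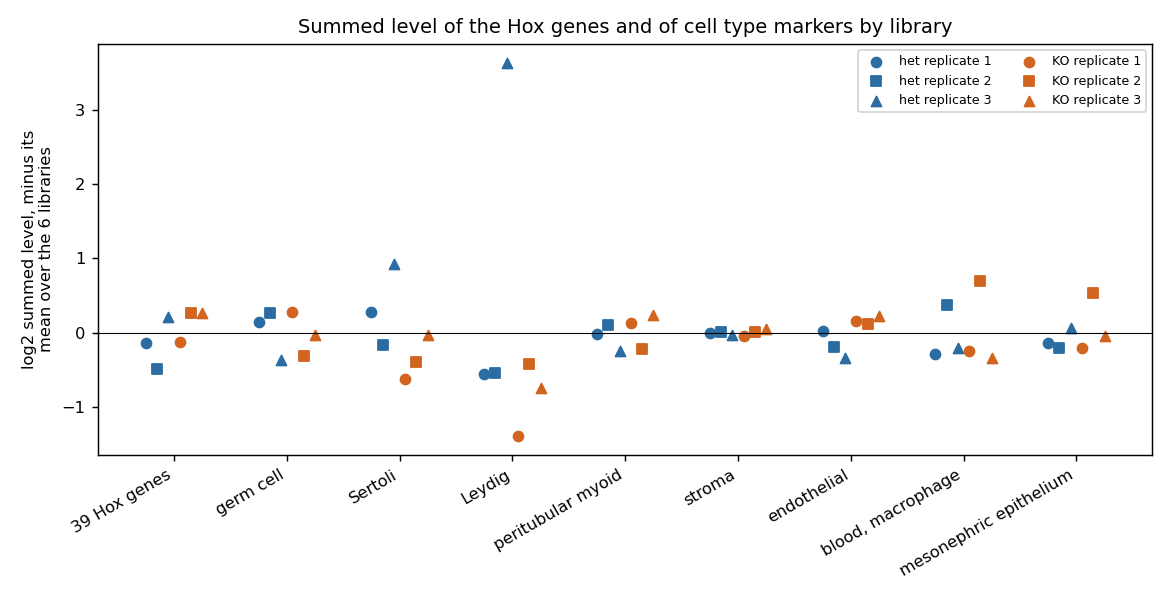
Summed level of the Hox genes and of each marker list in each of the 6 libraries, as log2 of the sum minus its mean over the 6 libraries. Blue is het and orange is KO, with the symbol giving the replicate; the stroma sum lies within 1.06-fold although its members vary more, Leydig markers are high in het replicate 3, and the 3 libraries with the highest Hox sums have the 3 lowest germ sums.

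Other genes lie within the clusters, most of them noncoding. The 4 spans, each from the first to the last base of its Hox genes, hold 46 such genes in the annotation, of which 24 were listed and 12 tested. Limma called 0 in either direction, with 0 at an unadjusted p under 0.05, and edgeR and DESeq2 also called 0. The median log2 fold change was 0.29, near that of the Hox genes, with which some of these genes share exon bases.

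Haglr, a long noncoding RNA that starts beside Hoxd1, was the highest, at 244, 224 and 336 normalized counts in het against 217, 241 and 287 in KO (log2 fold change -0.10, SE 0.29, limma adjusted p = 0.974). Hoxaas3, antisense to HoxA genes, was at 67.7, 50.2 and 41.9 in het against 62.3, 59.9 and 110 in KO. Both overlapped between genotypes. All KO libraries were above all het libraries in 2 of the 12 tested (7.17% of all genes tested), and below in 0 (5.57% of all genes tested). The 2 were Gm11539, a pseudogene, and Hoxa11os, the antisense partner of Hoxa11. Hoxa11os was at 5.72, 8.69 and 1.95 in het against 11.9, 10.3 and 32.3 in KO (log2 fold change 1.55, SE 0.88, limma adjusted p = 0.824). Hoxa11 itself overlapped, at 30.5, 17.4 and 52.7 in het against 56.4, 28.9 and 37.2 in KO. It shares 35.0% of its exon bases with Hoxa11os, and how reads there were assigned is not given. Hotair, the noncoding RNA of HoxC, ranged from 2.07 to 8.78 and was not tested. Of the 7 annotated microRNA genes in the spans only Mir10a was listed, at 0 in 4 libraries. Whether these libraries captured such short RNAs was not tested, so a gene not listed is not evidence that its microRNA was absent.

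Among the flanking genes, 22 were tested, and limma called 0 in either direction, with a median log2 fold change of 0.01. On recovered reads, edgeR and DESeq2 called 0 as well. The 1 gene with an unadjusted p under 0.05 was Cbx5, which encodes the heterochromatin protein HP1 alpha and is the middle of the 3 genes on its side of HoxC. It was at 2365, 3072 and 3063 normalized counts in het against 4503, 4476 and 4693 in KO (log2 fold change 0.70, SE 0.20, limma adjusted p = 0.301). The 3 KO libraries were close together and all above het. Cbx3, another HP1 gene, is the farthest of the 3 genes on its side of HoxA. Cbx3 was at 2439, 2817 and 2408 in het against 2833, 3036 and 4995 in KO, also without overlap (log2 fold change 0.46, SE 0.25, limma adjusted p = 0.818). Cbx1, an HP1 gene and the farthest of the 3 on its side of HoxB, overlapped between genotypes, at 725, 598 and 793 in het against 495, 1047 and 559 in KO. Cbx3 and Cbx1 were chosen after their values were seen. All KO libraries were above all het libraries in 2 of 22 flanking genes, Cbx5 and Cbx3 (7.17% of all genes tested), and below in 4 of 22 (5.57% of all genes tested). The 4 were Ttll6 (log2 fold change -0.57), Atp5g2 (-0.49), Nfe2l2 (-0.27) and Atp5g3 (-0.26). The highest flanking genes, Tax1bp1 and Hnrnpa1, had log2 fold changes of 0.13 and 0.04.

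Genes that act with or on Hox genes were mostly abundant. Per kb, the median cofactor stood at the 52.7th percentile of protein-coding genes, the median activator at the 56.8th and the median Polycomb or other repressor at the 77.0th, all above the median Hox gene. Limma called 0 of the 37 tested in either direction, with 1 higher and 1 lower at an unadjusted p under 0.05, and edgeR and DESeq2 called 0.

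The cofactors are homeodomain proteins that bind DNA together with Hox proteins. All 9 were tested with a median log2 fold change of 0.13. Pbx2 was the highest, at 1521, 1520 and 3552 normalized counts in het against 1728, 3522 and 2694 in KO. Pknox1 was at 1683, 1709 and 1136 in het against 2594, 1007 and 1431 in KO. Neither separated the genotypes.

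The activators (11 tested, median log2 fold change -0.20) include Cdx factors, retinoic acid receptors and the Trithorax gene Kmt2a. Gdf11, a ligand that promotes posterior Hox transcription, was at 258, 328 and 259 normalized counts in het against 355, 420 and 931 in KO, without overlap (log2 fold change 0.88, SE 0.36, limma adjusted p = 0.676). Cdx1 was at 257, 345 and 368 in het against 346, 127 and 74.5 in KO, with overlap (log2 fold change -1.10, SE 0.49, limma adjusted p = 0.727). These were the 2 genes with an unadjusted p under 0.05. Aldh1a2, which makes retinoic acid, and Kmt2a were the highest, with log2 fold changes of -0.20 and 0.09.

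The repressors (16 tested, median log2 fold change 0.18) are mostly Polycomb subunits. Rnf2 was the highest, at 7856, 8920 and 5144 normalized counts in het against 9224, 5046 and 7115 in KO. Eed was at 4670, 4832 and 4563 in het against 5911, 4124 and 9673 in KO. Both overlapped, and KO replicate 3 was the highest library of Eed. Ezh2, the methyltransferase of the complex that contains Eed, had a log2 fold change of 0.40 and an interval around 0. Of the 3 ParaHox genes, homeobox relatives outside the clusters, only Gsx2 was tested, with a log2 fold change of 0.14.

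Transposable elements, which loss of Morc1 is known to derepress, were looked up within the Hox clusters in the authors' table of individual copies. The 4 spans held 25 listed copies, 23 in HoxB and 2 in HoxD, and none in HoxA or HoxC. Of these, 22 lay in the 74.0 kb between Hoxb13 and Hoxb9, or 29.7 copies per 100 kb, against 0.718 per 100 kb over the remaining 417.8 kb of the clusters and 11.5 per 100 kb for the whole table. The lowest listed copy had 10 reads over the 6 libraries, as had the lowest listed gene, so these densities describe copies with reads and not the genome.

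Copies within the clusters were short (58 to 1061 bases, median 221). Only 1 had a mean of at least 10 normalized counts, a copy of 910 bases at chr11:96227277-96228186 on the minus strand, between Hoxb13 and Hoxb9. It was at 2.11, 5.61 and 7.67 normalized counts in het against 3.82, 34.8 and 24.8 in KO. KO replicates 2 and 3 were high and KO replicate 1 lay among the het values. Its log2 fold change was 1.55 (SE 0.93, limma adjusted p = 0.358 over copies), so 0 of 1 was called and 0 had an unadjusted p under 0.05, where limma called 15.6% of the 49781 copies tested higher and 0.735% lower. The copies of the interval summed to 94.1 ± 32.1 in het and 77.8 ± 35.1 in KO (SD, n = 3 each). Copies were scaled by their own factors, not those of the genes. In KO replicates 2 and 3 a read counted as 0.774 and 0.855 for copies, against 1.033 and 0.980 for genes. In het replicates 1 and 2 it counted as 1.055 and 1.122, against 0.954 and 0.966. KO replicate 1 and het replicate 3 differed less, both lower for copies. The means rest on the copy scale. With the gene factors in place of the copy factors the KO mean would lie slightly above the het mean, so their order depends on the scale. The difference was not tested on either scale.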

How the data were processed

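RNA was sequenced from P0 gonocytes of Morc1 (+/-) and Morc1 (-/-) mice (3 libraries each), after SMART-seq v4 amplification, per the labels' protocols. The submitters' processing notes name bcl2fastq 2.20, cutadapt 1.18, HISAT2 2.1.0, featureCounts 1.5.2 and DESeq2 1.26.0 with the build mm10/GRCm38; which settings were used for strand, shared exons and multi-mapping reads is not given in the sources used here. The authors deposited a signal per gene and per transposable element copy. The first table held gene counts divided by 1 size factor per library. The second held values of the same form with other factors. In each library 100% of values were whole multiples of 1 step within 0.01, which gives back the reads; in KO replicate 1 the step was so near 1 that this recovery could not be checked independently. All columns of the tables were used, and 0 were unmapped.

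Genes were matched to GENCODE M21 by Ensembl identifier. Limma 3.58.1 (trend, R 4.3.3) was fitted to log2(normalized count + 1) over all 26005 genes with a mean of at least 10. Adjustment was by Benjamini-Hochberg, with a threshold of 0.05. For low genes the added 1 draws fold changes towards 0, but a library at or near 0 can also enlarge them. The log2 fold change in limma and edgeR was 2.61 and 1.66 for Hoxb6, 1.27 and 1.01 for Hoxd11, and 1.28 and 1.47 for Hoxa2. Copies were fitted likewise. edgeR 4.0.16 and DESeq2 1.42.0 were run on recovered reads. Other alternatives changed the pseudocount (0.1 or 10), the filter (none or a mean of 50), the trend, the scale, a replicate block and the libraries used. The fit was tried on simulated data, where it recovered 44% of 2-fold changes and 100% of 4-fold changes (50 genes each). The simulation gave every gene the same spread and drew the changed genes from all tested genes, so these shares are not those for Hox genes. Per-kilobase levels divide by the union of annotated exons, and depth (28363683 to 32816861 gene reads per library) limits low members, whose estimates rest on a few reads.

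Replicate numbers did not pair the libraries: deviations of same-numbered libraries correlated at 0.14, -0.16 and -0.04 across genes. Values in every library are given for members that did not overlap between genotypes and for the 8 members with the highest mean (1 of them is counted in totals but not reported here), and in each other list for genes with an unadjusted p under 0.05 and at most the 2 highest; others are named as chosen after their values were seen or by counts. The members and lists, marker lists included, were chosen with earlier results of these data known.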

Additional observations from a re-analysis of the deposited data

How the results depend on the processing

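The counts of Hox genes, other cluster genes, flanking genes and regulators called stayed at 0 in both directions under all 16 alternatives, and that of transposable element copies in the clusters under all 11. The smallest limma, edgeR or DESeq2 adjusted p of any Hox gene ran from 0.537 to 0.978 over these settings. The median log2 fold change of tested Hox genes was 0.22 to 0.59, and the log2 ratio of the summed Hox level 0.10 to 0.45. The ratio for paralogs 9 to 13 changed sign in 1 of 8 alternatives (-0.02 without het replicate 2). Of 158 comparisons over the 10 reported members that met the rule for naming, 155 kept direction and side of the threshold. Hoxb6, Hoxa11, Hoxc5 and Hoxd12, also given in every library, were not among these comparisons. Hoxb7 turned from 0.29 to -0.14 without KO replicate 2, and Hoxb13 from 0.19 to -0.19 without KO replicate 2 and -0.04 without KO replicate 3; leaving out 1 library gave -0.14 to 0.61 for Hoxb7 and -0.19 to 0.80 for Hoxb13. The call on Morc1 was lost without the trend (log2 fold change -2.03, limma adjusted p = 0.089), and leaving out 1 library gave -2.31 to -1.88; fewer libraries are tested there, and the cause was otherwise not tested. With the replicate block limma called 64 genes higher and 5 lower of all tested, against 112 and 11 without it, and 0 Hox genes, and 1 of 6 libraries correlated best with its own number. In edgeR with TMM and the replicate block, added after seeing the data, Morc1 was at -2.04 (edgeR adjusted p = 0.0717) and 0 Hox genes were called. Leaving out 1 library gave 15 to 107 genes called higher and 1 to 7 lower. Total reads as the scale moved the median of all genes from -0.02 to -0.05. Depth limits the 5 members with a mean under 10.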
